A study of Mus musculus with 4 samples.

Results

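The genes described here are the histone lysine methyltransferases, or writers, and the lysine demethylases, or erasers. They were chosen by name from the deposited table: every gene called Kdm, Kmt, Setd, Setdb, Nsd1 to Nsd3, Ehmt or Suv followed by its number, apart from Kdm5c and Kdm5d. The rule took 40 of 24497 gene rows, of which 23 are writers, 16 are erasers and 1, Setdb2-phf11c, is a readthrough transcript that shares reads with Setdb2. They were measured in mouse leukaemia grown in culture from haematopoietic stem cells of the bone marrow, into which the oncogenes NRAS and AE9a (a truncated AML1-ETO fusion) had been introduced. The stem cells of 2 libraries came from wild-type (WT) mice, and those of the other 2, labelled Tet2 KO, from Tet2-/- mice, which lack exon 3 of the 5-methylcytosine dioxygenase gene Tet2. Both genotypes carried both oncogenes, and the medium of both held SCF (50 ng/ml), IL-3 (10 ng/ml), IL-6 (10 ng/ml), puromycin (2 µg/ml) and G418 (1 mg/ml). Whether the 2 libraries of a genotype were separate cultures or mice is not in the labels, so the p-values reflect the spread between libraries that may be technical repeats.

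Writers transfer methyl groups from S-adenosylmethionine to lysines of histone tails, most of them through a SET domain, and erasers remove them. Kdm1a and Kdm1b do so as flavin-dependent amine oxidases, and the JmjC erasers as iron- and 2-oxoglutarate-dependent dioxygenases, the same enzyme class as Tet2. Methylation of H3K4 marks promoters and enhancers, that of H3K36 lies over transcribed gene bodies, and methylation of H3K9, H3K27 and H4K20 is tied to repression and chromosome compaction. In blood, several of these genes are known as leukaemia genes: Kmt2a is the MLL gene of leukaemic translocations, and Kdm1a and its partners hold back myeloid differentiation.

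Values are TPM, a unit of transcript abundance that is scaled to transcript length and to a fixed total and keeps no sequencing depth, so the depth is unknown. Tet2 itself was at 16.62 and 16.98 TPM in WT, against 16.98 and 16.95 TPM in the libraries labelled Tet2 KO. This value covers all exons and does not separate the deleted exon 3, so it is no check of the labels, and the groups are named by their labels throughout. Among genes averaging at least 10 TPM, the replicates of WT differed by a median of 0.0504 on the log2 scale and those of Tet2 KO by 0.0717. Over the 11452 genes tested the median log2 fold change, Tet2 KO over WT, was 0.23, and 73.9% of them were called, 54.4% higher and 19.5% lower in Tet2 KO (limma adjusted p under 0.05). Median-ratio scaling of the libraries, which brings that median close to 0, is given below where it alters a call. Tet2 had a log2 fold change of 0.01 on the deposited scale (limma adjusted p = 0.868). It was called lower after this scaling (-0.22, limma adjusted p = 0.00935) and with the length and GC correction described below (-0.50). These values also cover all exons. The cells had the myeloid markers of their label: Ptprc, Spi1, Itgam and the rest of a list of 10 were detected, with a summed level of 22590 to 22617 TPM in WT and 10141 to 10247 TPM in Tet2 KO, most of it Lyz2. On the deposited scale 6 of the 10 fell and 4 rose (Mpo, Cd33, Cebpa and Ptprc), and their part in the results was not tested. After median-ratio scaling Ptprc was no longer called (log2 fold change 0.003). With the length and GC correction Ptprc was called lower (-0.21) and Cd33 was not called (0.06). Lists of 5 B cell, 5 T cell and 5 erythroid markers were under 1 TPM in all libraries apart from 1 erythroid gene, and so were 4 of 5 stromal and endothelial markers. The exceptions were Hba-a1, at up to 1.03 TPM, and Pecam1. In bulk libraries fewer cells of a type and less RNA per cell cannot be told apart.

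On the deposited TPM scale, most writers and erasers were higher in Tet2 KO than in WT. Of the 38 members that reached 1 TPM in at least 2 libraries, 28 rose, 3 fell and 7 did not pass the test, where 73.9% of all genes were called, 54.4% higher and 19.5% lower. Their median log2 fold change was 0.49. The largest rise was that of the H3K4 methyltransferase gene Kmt2c, 2.44-fold, and the largest fall that of Setd6, to 0.686 of its WT level. Both Tet2 KO libraries lay above both WT libraries for 30 of the 38, and below them for 3, where the shares over all tested genes were 62.4% and 24.4%. After median-ratio scaling 22 members were higher and 6 lower, with a median of 0.25, where 67.7% of all genes were called, 33.3% higher and 34.4% lower. The 22 were a subset of the 28: Ehmt1, Ehmt2, Setd1a, Setdb1, Kdm4b and Kdm7a were no longer called, and Kmt5a, Kmt5c and Setd3 joined the lower genes. With the length and GC correction described below, 17 of 37 members were higher and 10 lower, with a median of 0.05. The shares of all genes were then 34% and 35.5%.

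**Figure D1:**
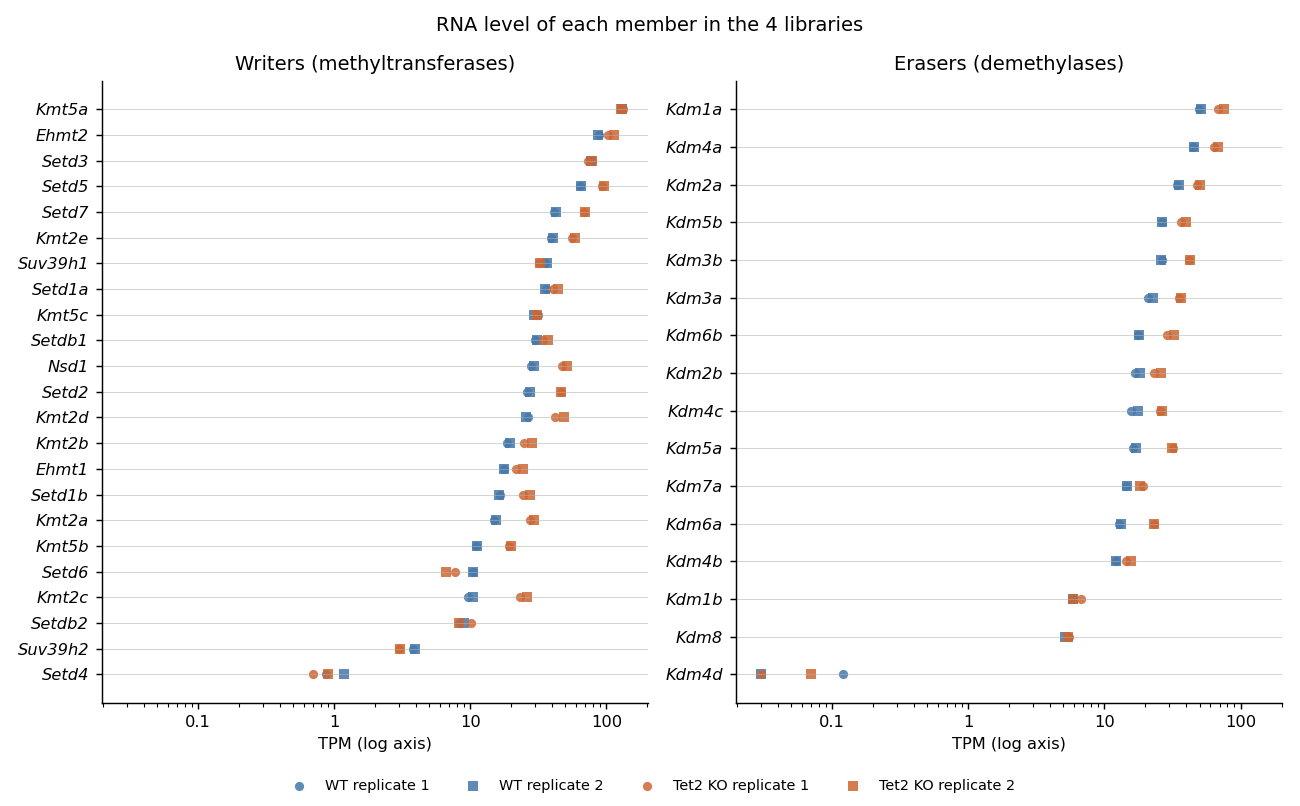
TPM (log axis) of each writer (left) and eraser (right), ordered by WT level, with 1 point per library: blue for WT, orange for Tet2 KO, circles for replicate 1 and squares for replicate 2. Orange points lie to the right of blue ones for most genes, and overlap them for Kmt5a, Setd3, Kmt5c, Setdb2, Setd4 and Kdm4d. They lie to the left for Setd6, Suv39h1 and Suv39h2.

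In WT the order of levels ran from Kmt5a, the H4K20 monomethyltransferase gene, at 129.1 ± 2.45 TPM (SD, n = 2), through Ehmt2 at 87.5 ± 0.636, Setd3 at 78.2 ± 0.841 and Setd5 at 64.6 ± 1.18, to Kdm1a, the most abundant eraser, at 50.2 ± 1.27 TPM. These neighbours lay further apart than their replicates. Suv39h1 at 35.98 ± 1.16 and Setd1a at 35.55 ± 0.354, or Kmt5c at 30.48 ± 1.24 and Setdb1 at 30.405 ± 0.926, did not differ beyond that spread. In Tet2 KO the top ranks held the same 5 genes, with Setd5 above Setd3. Suv39h1 went from rank 9 to rank 18 of the 40 and Kmt5c from 12 to 21, while Nsd1 went from 14 to 9 and Kmt2c from 33 to 26. Setd4, at 0.87 and 1.18 TPM in WT and 0.7 and 0.9 TPM in Tet2 KO, and Kdm4d, at 0.12 or less in every library, were too low to be tested.

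Upstream sequence is shown for 4 members, from RefSeq on GRCm38.p6, because they span the responses: Kmt2c, the largest rise; Kdm6a, the largest rise among erasers with an entry; Kmt5a, the highest level, with overlapping groups; and Setd6, the largest fall. Each runs 5′ to 3′ over the 250 bases before an annotated transcription start, the one nearest the 5′ end of the gene. Capitals mark any match, on either strand, to 6 motifs: the letters GGGCGG for the GC box bound by Sp factors, CCAAT for the box bound by NF-Y, CCGGAAG for ETS factors, TGTGGT for RUNX factors, CACGTG for the E-box of MYC and its relatives, and TGACGTCA for the CRE of the CREB family. Matches can overlap.
Kmt2c, chr5:25498784-25499033, minus strand: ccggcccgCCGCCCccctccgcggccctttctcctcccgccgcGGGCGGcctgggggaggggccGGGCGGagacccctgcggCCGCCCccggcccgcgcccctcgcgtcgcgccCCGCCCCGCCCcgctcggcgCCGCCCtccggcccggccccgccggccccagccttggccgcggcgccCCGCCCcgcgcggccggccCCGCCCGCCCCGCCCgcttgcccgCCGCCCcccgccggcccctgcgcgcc
Kdm6a, chrX:18162325-18162574, plus strand: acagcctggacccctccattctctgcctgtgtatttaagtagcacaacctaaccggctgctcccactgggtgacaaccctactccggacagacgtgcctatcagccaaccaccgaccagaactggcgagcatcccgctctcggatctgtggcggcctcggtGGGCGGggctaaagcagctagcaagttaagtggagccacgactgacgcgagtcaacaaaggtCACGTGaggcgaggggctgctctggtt
Kmt5a, chr5:124439680-124439929, plus strand: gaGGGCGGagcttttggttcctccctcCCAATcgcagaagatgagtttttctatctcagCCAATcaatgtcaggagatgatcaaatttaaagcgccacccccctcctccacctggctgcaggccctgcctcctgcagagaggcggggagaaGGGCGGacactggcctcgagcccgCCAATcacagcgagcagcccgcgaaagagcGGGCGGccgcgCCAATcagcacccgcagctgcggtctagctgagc
Setd6, chr8:95715663-95715912, plus strand: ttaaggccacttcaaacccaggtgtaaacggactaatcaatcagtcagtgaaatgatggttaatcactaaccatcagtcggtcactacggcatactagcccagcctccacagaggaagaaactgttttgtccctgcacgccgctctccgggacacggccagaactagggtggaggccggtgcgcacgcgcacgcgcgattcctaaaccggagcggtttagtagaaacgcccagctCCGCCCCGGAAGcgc
The Kmt2c window was 91.6% G and C with 12 GC boxes, the Kdm6a window had 1 GC box and 1 E-box, the Kmt5a window 3 GC boxes and 4 CCAAT boxes, and the Setd6 window a GC box that overlaps an ETS match. Among the 30 members with an entry, 66.7% held a GC box, against 59.7% of 8905 tested genes and 33.1% of all 27025 genes with an entry. A CCAAT box was found in 40% of them (36.9% and 34.5%), an ETS match in 16.7% (15.2% and 7.11%), an E-box in 6.67% (8.68% and 6.04%) and a CRE in 3.33% (2.84% and 1.61%). RUNX letters were in 1 member window, or 3.33%, and in 11.1% of tested and 14.2% of all genes. The median G and C content was 61.2% for members and 60% for tested genes, and the median number of CpG 20 and 16. These matches describe the letters of the windows and are not binding sites.

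All 7 H3K4 writers rose, where 54.4% of all genes were called higher. Kmt2c (chromosome 5, 25271798 to 25498783, mm10), which encodes a monomethyltransferase of enhancers, stood at 9.7 and 10.48 TPM in WT, against 23.2 and 26.04 TPM in Tet2 KO. The groups were far apart, with a log2 fold change of 1.21 (SE 0.0774, limma adjusted p = 7.49e-10), and 0.98 after median-ratio scaling. Its paralogue Kmt2d was at 26.45 and 25.54 TPM in WT, against 41.64 and 48.91 TPM in Tet2 KO, where the libraries differed more from each other than in WT, but stayed clear of it (0.77, SE 0.072, limma adjusted p = 2.42e-07). Kmt2a (chromosome 9, 44803355 to 44881296), the MLL gene, rose from 14.83 and 15.42 to 27.48 and 29.49 TPM (0.87, limma adjusted p = 7.12e-09), 1.88-fold. Kmt2b, its closest paralogue, rose less, from 18.77 and 19.51 to 24.74 and 28.51 TPM (0.45, limma adjusted p = 3.51e-05).

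Setd1a and Setd1b encode the catalytic subunits that place most H3K4 trimethylation. Setd1b rose from 16.45 and 16.23 to 24.25 and 27.31 TPM, 1.58-fold. Setd1a rose from 35.8 and 35.3 to 40.79 and 43.85 TPM, 1.19-fold (0.24, limma adjusted p = 0.00144), a difference that was close to 0 after median-ratio scaling and no longer called. Setd7, which encodes an H3K4 monomethyltransferase that also acts on non-histone proteins, rose from 41.16 and 42.97 to 68.35 and 69.16 TPM, 1.63-fold (0.70, limma adjusted p = 7.92e-09). In the scaled data 6 of the 7 H3K4 writers were still higher, where 33.3% of all genes were. With the length and GC correction described below 5 were higher and 1, Setd1a, was lower (-0.16). The shares of all genes were then 34% and 35.5%.

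H3K9 writers moved in both directions, and by less. Of 6 tested, 3 rose, 2 fell and 1 did not pass, where 54.4% of all genes were called higher and 19.5% lower. Ehmt2, which encodes the H3K9 dimethyltransferase G9a, rose from 87.95 and 87.05 to 103.37 and 113.07 TPM, 1.24-fold. Its heterodimer partner Ehmt1 rose from 17.79 and 17.58 to 21.71 and 24.41 TPM, 1.304-fold. Setdb1, whose product trimethylates H3K9 at silenced retroelements, rose from 29.75 and 31.06 to 34.22 and 37.15 TPM, 1.17-fold (limma adjusted p = 0.00413), and was not called without WT replicate 1 (limma adjusted p = 0.0632; 0.00247 to 0.927 over all alternatives). None of these 3 was called after median-ratio scaling. With the length and GC correction described below, Setdb1 was called lower (-0.16). Setdb2 overlapped between the groups, at 8.28 and 8.94 TPM in WT and 10.1 and 8.27 TPM in Tet2 KO, as did the readthrough Setdb2-phf11c, at 1.28 and 1.54 and at 1.02 and 1.96 TPM. Their shared reads make both values uncertain.

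The members that fell were the pair whose products trimethylate H3K9 in constitutive heterochromatin, and Setd6. Suv39h1 (chromosome X, 8061171 to 8074760) was at 35.16 and 36.8 TPM in WT, against 32.02 and 32.3 TPM in Tet2 KO (log2 fold change -0.16, SE 0.0585, limma adjusted p = 0.0238). Suv39h2 (chromosome 2, 3455815 to 3475031) was at 3.82 and 3.91 TPM in WT, against 3 and 3.06 TPM in Tet2 KO (-0.27, SE 0.106, limma adjusted p = 0.0293). Neither overlapped between the groups, and the scaled differences were -0.40 and -0.46. On the deposited scale both calls depended on single libraries: Suv39h1 was not called without WT replicate 1, WT replicate 2 or Tet2 KO replicate 1 (limma adjusted p = 0.0622, 0.213 and 0.0505; 4.35e-08 to 0.213 over all alternatives). Suv39h2 was not called without any 1 of the 4 libraries (limma adjusted p = 0.0542 to 0.13; 1.44e-04 to 0.13 over all alternatives). Of 12 proliferation genes measured beside them, 3 rose and 3 fell, among the latter Plk1 from 63.5 ± 2.89 to 38.97 ± 0.354 TPM, Aurkb from 50.67 ± 0.0424 to 37.3 ± 1.17 TPM and Cdk1 from 55.7 ± 0.58 to 41.5 ± 2.14 TPM. Of all genes, 54.4% were called higher and 19.5% lower. After median-ratio scaling 1 of the 12 was higher and 9 were lower, with a median of -0.31. The shares of all genes were then 33.3% and 34.4%. Most of the 12 had the direction of Suv39h1 and Suv39h2 there. On the deposited scale their summed level was 1078 and 1097 TPM in WT and 1097 and 1093 TPM in Tet2 KO, and their part in the Suv39h1 and Suv39h2 difference was not tested.

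Both H3K36 writers of the name rule rose, where 54.4% of all genes were called higher. Setd2, which encodes the enzyme of H3K36 trimethylation, went from 26.3 and 27.5 to 46.41 and 46.06 TPM, 1.72-fold (0.76, SE 0.0581, limma adjusted p = 6.30e-09). The dimethyltransferase gene Nsd1 went from 27.99 and 29.17 to 46.99 and 50.96 TPM, 1.71-fold (0.76, limma adjusted p = 1.20e-08). The other two NSD genes are listed under older names, Whsc1 for Nsd2 and Whsc1l1 for Nsd3, which the rule does not take. They rose alongside, Whsc1 from 21.38 and 21.85 to 34.95 and 36.39 TPM, 1.65-fold, and Whsc1l1 from 17.41 and 17.98 to 29.57 and 30.98 TPM, 1.71-fold.

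The H4K20 writers separated by enzyme. Kmt5b, whose product adds further methyl groups to monomethylated H4K20, rose from 10.94 and 11.16 to 19.29 and 20.08 TPM, 1.78-fold (0.78, SE 0.0721, limma adjusted p = 6.39e-08). Its paralogue Kmt5c was at 31.36 and 29.6 TPM in WT, against 30.53 and 30.83 TPM in Tet2 KO (0.01, SE 0.0604, limma adjusted p = 0.892), and the groups overlapped. Kmt5a, whose monomethylation both act on, was at 127.4 and 130.87 TPM in WT, against 133.25 and 128.22 TPM in Tet2 KO (0.02, SE 0.046, limma adjusted p = 0.742), also overlapping. After median-ratio scaling, Kmt5a and Kmt5c were called lower, with a log2 fold change of -0.23 each.

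The remaining SET-domain genes have functions other than a main histone mark. Setd6, whose product methylates the NF-kB subunit RelA, fell from 10.4 and 10.54 to 7.72 and 6.65 TPM (-0.49, SE 0.0902, limma adjusted p = 1.30e-04), with the lower value in Tet2 KO replicate 2. Of the 3 members that fell, it was the 1 called under every alternative run. Setd3, an actin histidine methyltransferase gene, overlapped at 78.79 and 77.6 TPM in WT and 73.64 and 77.79 TPM in Tet2 KO, and was called lower in the scaled data (-0.29). Setd5 rose from 63.74 and 65.41 to 91.96 and 96.27 TPM, and Kmt2e, a member of the MLL family with no clear methyltransferase activity, from 39.15 and 40.47 to 55.93 and 59.02 TPM, 1.46-fold and 1.44-fold. Kmt2e was not called with the length and GC correction described below (0.05, limma adjusted p = 0.282).

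Of the 15 tested erasers, 13 rose and 0 fell in limma, also at an unadjusted p under 0.05. All 15 had both Tet2 KO libraries above both WT libraries, including Kdm1b and Kdm8, which did not pass. Of all tested genes, 54.4% were called higher and 62.4% lay wholly above WT. After median-ratio scaling 11 of the 15 were higher and 0 lower, where 33.3% and 34.4% of all genes were. Kdm1b and Kdm8 were then at -0.11 and -0.17, and not called. Kdm5a (chromosome 6, 120364124 to 120444574), a demethylase gene for trimethylated H3K4, rose most, from 16.22 and 16.92 to 31.76 and 31.39 TPM, 1.91-fold (0.89, SE 0.0635, limma adjusted p = 2.68e-09). Kdm5b, its paralogue, rose from 26.53 and 26.4 to 36.52 and 39.73 TPM, 1.44-fold (0.51, limma adjusted p = 1.56e-06), a call that ended with the length and GC correction described below (0.01, limma adjusted p = 0.793). Kdm1a (chromosome 4, 136550540 to 136602723), the LSD1 gene, rose from 49.26 and 51.06 to 68.37 and 76.14 TPM, 1.44-fold (0.52, SE 0.0594, limma adjusted p = 8.47e-07). Its paralogue Kdm1b was at 5.74 and 5.87 TPM in WT, against 6.72 and 5.89 TPM in Tet2 KO (0.10, limma adjusted p = 0.361), where only replicate 1 stood apart.

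The erasers of H3K27 both rose, where 54.4% of all genes were called higher. Kdm6a (chromosome X, 18162575 to 18279936), the UTX gene, went from 12.87 and 13.32 to 23.23 and 23.2 TPM, 1.77-fold (0.78, SE 0.0681, limma adjusted p = 3.10e-08), and Kdm6b, the JMJD3 gene, from 17.79 and 17.81 to 28.95 and 32.49 TPM, 1.73-fold (0.75, limma adjusted p = 5.27e-08). Kdm7a, which encodes a PHD-finger enzyme that acts on H3K9 and H3K27, rose from 14.39 and 14.75 to 19.29 and 18.32 TPM, 1.29-fold, and was not called after scaling (0.11).

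The H3K9 erasers Kdm3a and Kdm3b also rose, from 21.03 and 22.75 to 35.54 and 36.46 TPM and from 26.29 and 26.16 to 41.9 and 42.42 TPM, 1.64-fold and 1.61-fold. Of the Kdm4 genes, whose products remove trimethylation of H3K9 and H3K36, Kdm4a rose from 44.82 and 45.78 to 63.55 and 68.25 TPM and Kdm4c from 15.76 and 17.54 to 25.68 and 26.58 TPM. Kdm4b rose from 12.17 and 12.08 to 14.43 and 15.73 TPM, 1.24-fold, and was not called after scaling (0.06). The H3K36 dimethyl erasers Kdm2a and Kdm2b rose from 34.29 and 35.53 to 47.5 and 49.99 TPM and from 16.88 and 18.13 to 22.96 and 25.87 TPM, 1.396-fold and 1.395-fold. Neither was called with the length and GC correction (-0.02 and 0.14, limma adjusted p = 0.64 and 0.0535). Kdm8, a JmjC gene whose product is also known as a peptidase and hydroxylase, stayed within 5.18 to 5.51 TPM (0.04, limma adjusted p = 0.718).

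Writers and erasers were then compared. Of 22 tested writers, 15 rose, 3 fell and 4 did not pass, with a median log2 fold change of 0.41. Of 15 erasers 13 rose and 0 fell in limma, with a median of 0.52, where 54.4% of all genes were higher and 19.5% lower. After median-ratio scaling 11 writers were higher and 6 lower (median 0.17), and 11 erasers were higher and 0 lower (median 0.27), where the shares of all genes were 33.3% and 34.4%. The difference of the medians was -0.11 on the deposited scale and -0.10 after median-ratio scaling. On the deposited scale its SD was 0.0334 over the 4 pairs of a WT and a Tet2 KO library. These pairs share libraries and are not independent, so the SD is no measure of replicate spread. The difference is a description, since genes are not replicates. The 23 writers summed to 762.85 and 774.29 TPM in WT and to 961.29 and 1008.31 TPM in Tet2 KO, 1.28 times the WT mean. They include 5 SET-domain genes that were not assigned to a histone residue, among them Setd6, 1 of the 3 that fell. These 5 made up 192.95 and 195.2 TPM of the sums in WT and 229.95 and 240.63 TPM in Tet2 KO. The 16 erasers summed to 319.59 and 329.31 TPM in WT and to 471.94 and 497.98 TPM in Tet2 KO, 1.49 times. The ratio of the sums, which does not depend on how the libraries are scaled, was 2.39 and 2.35 in WT and 2.04 and 2.02 in Tet2 KO. The groups did not overlap. With 2 libraries against 2, an exact permutation test cannot give a two-sided p below 0.333, and the ratios are given without a test.

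On the deposited values the direction of that ratio differed by target residue. For H3K9, writers over the erasers Kdm3a and Kdm3b went from 3.86 and 3.79 to 2.64 and 2.77. For H3K36, Setd2 and Nsd1 over Kdm2a and Kdm2b went from 1.06 in both WT libraries to 1.33 and 1.28. For H3K4, writers over erasers went from 1.67 and 1.65 to 1.75 and 1.78. None of the 3 overlapped between the groups. The Kdm4 genes, which act on H3K9 and H3K36, and Kdm7a were not in these classes. The Kdm4 genes summed to 72.87 and 75.43 TPM in WT and to 103.69 and 110.63 TPM in Tet2 KO, more than Kdm3a and Kdm3b. The levels of the H3K9 and H3K36 ratios therefore depend on that choice. The ratios are free of library scaling but not of transcript length: with the length and GC correction described below, the median log2 fold changes of H3K4 writers and erasers were 0.16 and 0.17, where they had been 0.70 and 0.51. For H3K9 the corrected medians were -0.15 for writers and 0.31 for erasers, and for H3K36 0.22 and 0.06. Erasers of H3K27 summed to 30.66 and 31.13 TPM in WT and to 52.18 and 55.69 TPM in Tet2 KO, and the H4K20 writers, most of it Kmt5a, to 169.7 and 171.63 and to 183.07 and 179.13 TPM.

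**Figure D2:**
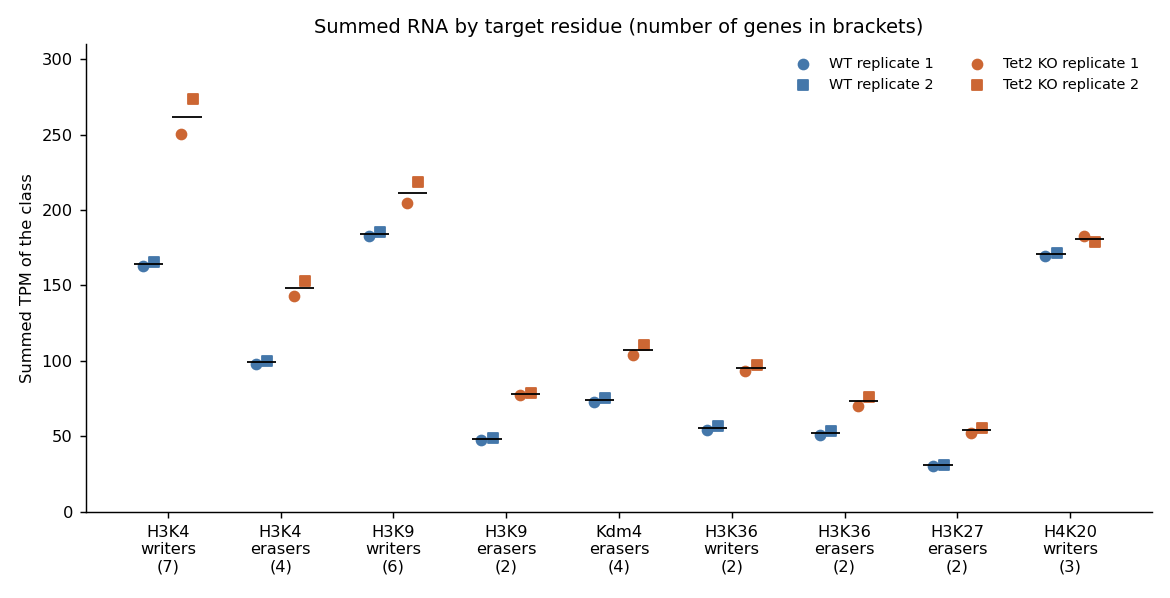
Summed TPM of the members that act on each residue, with 1 point per library (blue WT, orange Tet2 KO, circles replicate 1, squares replicate 2) and the mean of each group as a line. The Kdm4 erasers are shown as a class of their own. H3K4 writers rise from a mean of 164.3 to 261.9 TPM and the H3K9 erasers Kdm3a and Kdm3b from 48.1 to 78.2 TPM. H3K9 writers go from 184.04 to 211.3 TPM and H4K20 writers from 170.7 to 181.1 TPM.

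Paralogues were set against each other in the same library, 14 pairs in all. This ratio is also free of library scaling, but not of transcript length. In 10 pairs the ratio did not overlap between genotypes and in 4 it did. The share over all possible gene pairs was not computed, and since 62.4% and 24.4% of single genes lay wholly above or below WT, the count is no result about these pairs. The widest shift was that of Kmt5b over Kmt5c, from 0.349 and 0.377 in WT to 0.632 and 0.651 in Tet2 KO. Kmt2c over Kmt2d went from 0.367 and 0.41 to 0.557 and 0.532, and Kmt2a over Kmt2b from 0.79 in both WT libraries to 1.11 and 1.03. Kdm5a over Kdm5b went from 0.611 and 0.641 to 0.87 and 0.79, and Setd1b over Setd1a from 0.459 and 0.46 to 0.595 and 0.623. Kdm1b over Kdm1a was lower in Tet2 KO, at 0.117 and 0.115 against 0.0983 and 0.0774. The overlapping pairs were Kdm2a and Kdm2b, Kdm3a and Kdm3b, Kdm6a and Kdm6b, and Setdb2 and Setdb1. Kdm2a over Kdm2b was 2.03 and 1.96 in WT and 2.07 and 1.93 in Tet2 KO.

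Transcript length moved with these differences. The longest coding transcript had a median of 5953 bases among the 37 tested members with an annotated length and of 3280 bases among all 11365 tested genes with one, and 22 of the 37 were 5127 bases or longer, as are the longest 20% of genes. In that 20% bin 76.3% of all genes were called higher, with a median log2 fold change of 0.45, and the 22 members rose, with a median of 0.64. In the shortest 20% bin 34.1% were called higher, with a median of 0.01, and the 1 member there was Setd6. Across members the correlation of log2 fold change with log2 length was 0.777 (Pearson) and 0.717 (Spearman, n = 37), and it was 0.89 over the 22 writers, 0.464 over the 15 erasers and 0.249 over all tested genes. These are descriptions across genes, which share their libraries and are not independent.

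**Figure D3:**
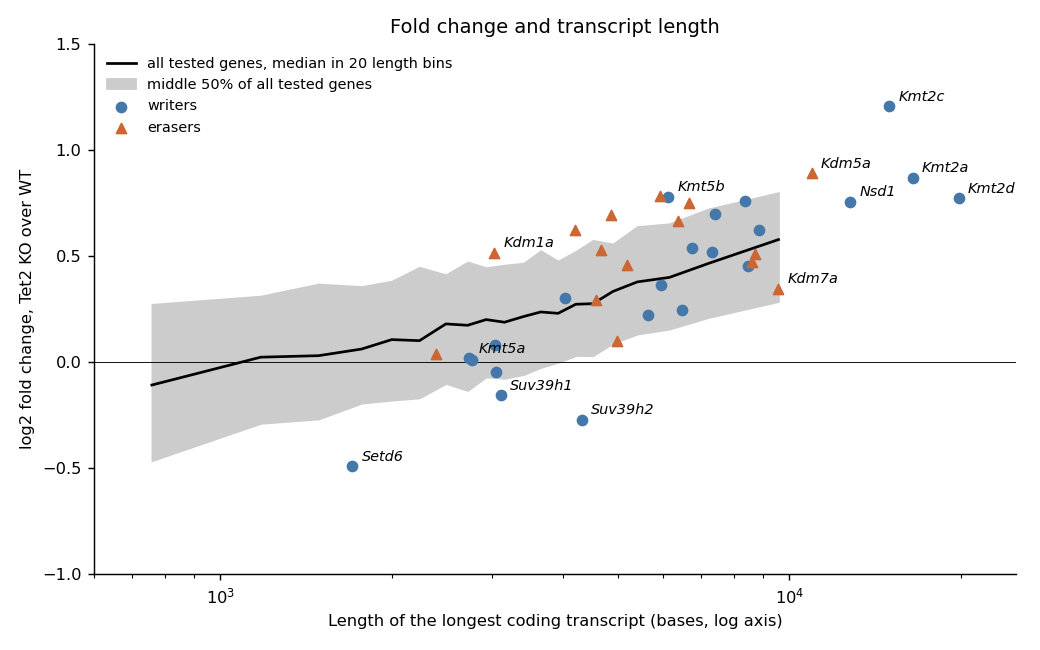
Log2 fold change (Tet2 KO over WT, deposited scale) against the length of the longest coding transcript (log axis) for writers (blue circles) and erasers (orange triangles), with the median (line) and middle 50% (band) of all tested genes in 20 length bins. The line rises with length, Kmt2c at 1.21 is the highest point, Kdm1a (0.52) and Kmt5b (0.78) lie above the band, and Setd6, Suv39h1 and Suv39h2 lie below it.

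With a correction for length and G and C content on top of median-ratio scaling, the median of the members was 0.05, and 17 were higher and 10 lower of 37, where 69.5% of all genes were called, 34% higher and 35.5% lower. All 17 were among the 28 that rose on the deposited scale. They were 9 writers (Kmt2c, Kmt2a, Kmt5b, Setd2, Setd7, Nsd1, Kmt2d, Setd1b and Setd5) and 8 erasers (Kdm1a, Kdm6a, Kdm3a, Kdm5a, Kdm4c, Kdm6b, Kdm3b and Kdm4a). Kmt2c kept the largest value, 0.63 (SE 0.0546), followed by Kmt5b at 0.37, Kdm1a at 0.35 and Kdm6a at 0.35. Suv39h2 and Setd6 were at -0.56 and -0.52. The lower genes were these, Suv39h1, Setd3, Kmt5a, Kmt5c and Kdm1b, and Kdm7a, Setd1a and Setdb1, which had risen on the deposited scale, at -0.22, -0.16 and -0.16. Of the 28, the calls of Kmt2b, Kmt2e, Ehmt1, Ehmt2, Kdm2a, Kdm2b, Kdm4b and Kdm5b ended, with values from -0.05 to 0.14. The writers' median was -0.02 and the erasers' 0.24, a difference of -0.26 in place of -0.11.

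**Figure D4:**
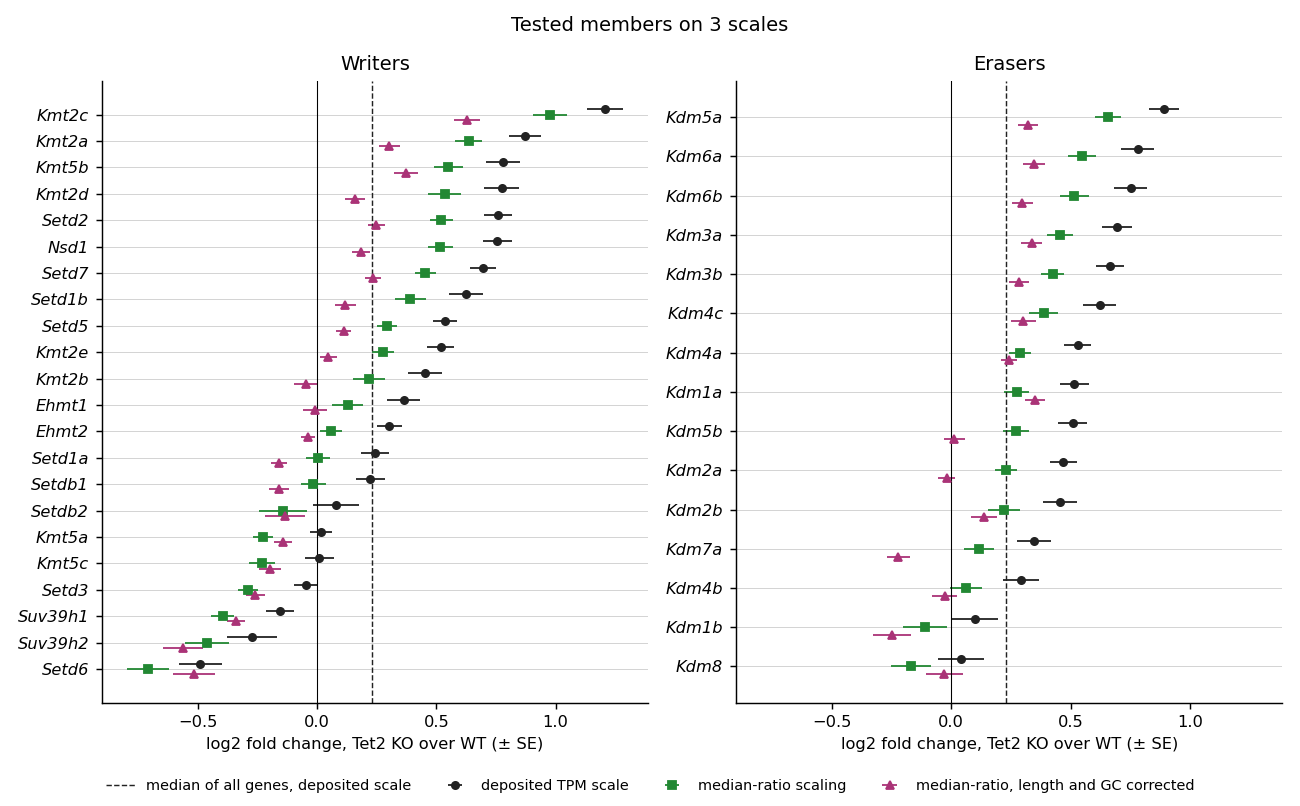
Log2 fold change (Tet2 KO over WT, ± SE) of each tested writer (left) and eraser (right) on the deposited TPM scale (black circles), after median-ratio scaling (green squares) and with the added length and GC correction (purple triangles). The dashed line is the median of all genes on the deposited scale, 0.23. Triangles lie left of the circles, for Kmt2c at 0.63 against 1.21 and for Kdm1a at 0.35 against 0.52, and Suv39h1, Suv39h2 and Setd6 are below 0 on all 3 scales.

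The other genes of the pathway were followed in 8 lists. In all, 67 of 88 tested genes rose, 3 fell and 18 did not pass, with a median log2 fold change of 0.38, where 54.4% of all genes were higher and 19.5% lower with a median of 0.23. After median-ratio scaling 44 were higher and 14 lower, where the shares of all genes were 33.3% and 34.4%. The count after scaling is given with each list. Of 16 partners of the H3K4 writers in COMPASS complexes and of their relatives, 13 rose and 1 fell (median 0.33; 7 higher and 2 lower after scaling, median 0.09), with the core subunit gene Rbbp5 up from 24.35 ± 0.0424 to 37.9 ± 0.799 TPM, the Kmt2c and Kmt2d partner Ncoa6 from 31.2 ± 1.3 to 47.9 ± 2.18 TPM and Kansl1, of the NSL acetyltransferase complex, from 23.96 ± 0.29 to 39.8 ± 1.76 TPM. Of 10 H3K9 partners and readers, 8 rose (median 0.34; 4 higher and 1 lower after scaling). Cdyl, a chromodomain corepressor gene, rose from 12.04 ± 0.502 to 21.8 ± 1.26 TPM, Atf7ip, which encodes the cofactor of Setdb1, from 23.6 ± 0.255 to 39.7 ± 2.1 TPM, and Trim28, the KAP1 gene, from 114.02 ± 1.35 to 154.3 ± 6.46 TPM.

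The partners of Kdm1a had the highest median of the 8 lists. Of 14, 12 rose and 0 fell in limma, also at an unadjusted p under 0.05, with a median of 0.66. After median-ratio scaling 10 were higher and 2, the histone deacetylase genes Hdac1 (-0.21) and Hdac2 (-0.18), were lower, and the median was 0.42, or 0.22 with the length and GC correction. These 2 are named because of that call. Over all tested genes, 54.4% were called higher and 19.5% lower on the deposited scale, and 33.3% and 34.4% after median-ratio scaling. Gfi1, a transcriptional repressor gene that recruits Kdm1a in myeloid cells, rose from 28.2 ± 1.54 to 66.0 ± 1.6 TPM, 2.34-fold (log2 fold change 1.20, limma adjusted p = 2.72e-11). The complex subunit genes Phf21a and Rcor3 rose from 8.62 ± 0.255 to 18.2 ± 0.438 TPM and from 8.62 ± 0.438 to 16.8 ± 1.27 TPM. Among 9 partners of Kdm2b in the PRC1.1 complex, 6 rose and 1 fell (median 0.39; 5 higher and 1 lower after scaling). Bcor rose from 33.2 ± 0.608 to 67.1 ± 2.82 TPM, the E3 ligase gene Rnf2 from 18.5 ± 2.17 to 37.7 ± 2.46 TPM and Rybp from 15.06 ± 1.35 to 26.2 ± 0.778 TPM. Of 10 genes linked to reading H3K36 methylation 9 rose (median 0.51; 6 higher and 1 lower after scaling), among them Zmynd11 from 22.4 ± 0.361 to 43.2 ± 1.12 TPM, Psip1, the LEDGF gene, from 26.4 ± 0.106 to 42.5 ± 4.93 TPM and the Polycomb-like gene Phf19 from 7.38 ± 0.148 to 12.1 ± 0.665 TPM.

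Writers and JmjC genes outside the name rule were called higher about as often as all genes, of which 54.4% were. Of 9 tested writers, 5 rose (median 0.31; 3 higher and 2 lower after scaling), with the H3K36 methyltransferase gene Ash1l up from 11.2 ± 0.721 to 19.7 ± 1.46 TPM, Smyd3 from 5.06 ± 0.368 to 10.1 ± 0.46 TPM and Prdm2 from 17.9 ± 0.198 to 23.7 ± 0.75 TPM. Of 9 tested JmjC genes, 6 rose (median 0.30; 4 higher and 3 lower after scaling). Jmjd1c, a paralogue of Kdm3a and Kdm3b, rose from 26.9 ± 0.969 to 59.7 ± 1.63 TPM, 2.22-fold (1.12, limma adjusted p = 5.21e-11), more than either of them. The H3K9 demethylase gene Phf2 rose from 23.5 ± 0.0919 to 39.2 ± 2.25 TPM and Hif1an, an asparagine hydroxylase gene, from 9.74 ± 0.502 to 14.6 ± 0.424 TPM. Of 11 genes that feed S-adenosylmethionine supply and the folate cycle, 8 rose and 1 fell (median 0.26; 5 higher and 2 lower after scaling). The mitochondrial serine hydroxymethyltransferase gene Shmt2 rose from 115.5 ± 1.65 to 224.5 ± 7.36 TPM. Mthfd1, which encodes a cytosolic folate enzyme, fell from 40.8 ± 0.212 to 22.5 ± 1.63 TPM (-0.84, limma adjusted p = 6.23e-09).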

How the data were processed

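RNA was extracted with QIAzol and made into libraries with a stranded mRNA kit, per the labels' protocols. STAR and RSEM on mm10 made the values, per the submitters' processing notes. Versions, the annotation and any filters were not given in the sources used here. Values were deposited by the authors as TPM, 1 column per library, and sum to the same total with 92 spike-in rows included. Those rows were left out of the tests. Spike-ins took 4.38 to 4.43% of WT and 5.33 to 5.48% of Tet2 KO libraries. How reads of similar copies were divided was not given there either.

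All genes with at least 1 TPM in at least 2 libraries were fitted with limma 3.58.1 in R 4.3.3 on log2(TPM + 1), using its trend and robust options. The two-sided p-values were adjusted by Benjamini-Hochberg across all 11452 genes tested, with a threshold of 0.05. A log2 fold change on this scale understates that of low genes. Folds without log2 are ratios of mean TPM. The steps were tested on simulated data. The length and GC correction removed, per library, a spline fit (4 degrees of freedom each) on the length and GC content of the longest coding transcript in GENCODE M21 (mm10), known for 99.2% of tested genes and 97.4% of tested members. The members and lists were chosen with earlier results of these data known. Every tested member is named, and up to 3 called genes of each other list with the largest absolute change, apart from 1 gene that is not reported here. Alternatives were other pseudocounts, filters, scalings, limma settings, a replicate block and leaving out each library. Figures were drawn with matplotlib 3.10.9.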

Additional observations from a re-analysis of the deposited data

How the results depend on the processing

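Of the 31 members called, 18 kept their direction and their side of the threshold under all 16 alternatives. Member counts stayed at 28 higher and 3 lower with the other pseudocounts, TPM rescaled without spike-ins and limma without trend or robust estimation. The replicate block also left them unchanged, and gave 6179 higher and 2211 lower over all genes, against 6225 and 2238 without it. The replicate numbers did not show pairing (correlation of replicate differences -0.0561 over all tested genes). Without single libraries, 27 to 28 members were higher and 1 to 2 lower, the lower ones all writers (1 to 2). Over all genes, median-ratio scaling gave 3815 higher and 3936 lower, against 3915 and 3741 after quantile normalization, 3394 and 4324 with spike-in scaling and 3866 and 4032 with the length and GC correction. The 3 members lower became 6 under the first 3 of these (writers 6, 5 and 6; erasers 1 after quantile normalization) and 10 with the correction (8 writers, 2 erasers), where 17 were higher (9 writers, 8 erasers). The pathway lists had 44, 39 and 41 genes higher with median-ratio scaling, spike-in scaling and the correction, and 14, 12, 17 and 20 lower with median-ratio, quantile, spike-in and the correction. Writers minus erasers was -0.1502 with no filter, -0.0633 with a filter of 5 TPM, -0.1657 after quantile normalization and -0.2628 with the correction. The cause of these shifts was not tested. 

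Log2 fold changes turned negative for these members. With the correction: Kdm2a -0.0192, Kdm7a -0.222, Kdm4b -0.0273, Kdm1b -0.247, Kdm8 -0.0286, Kmt2b -0.0468, Ehmt1 -0.00704, Ehmt2 -0.037, Setd1a -0.16, Setdb1 -0.161, Setdb2 -0.136, Kmt5a -0.142 and Kmt5c -0.197. With median-ratio scaling: Kdm1b -0.111, Kdm8 -0.168, Setdb2-phf11c -0.121, Setdb1 -0.0155, Setdb2 -0.142, Kmt5a -0.227 and Kmt5c -0.229. With quantile normalization: Kdm1b -0.173, Kdm8 -0.234, Setdb2-phf11c -0.234, Setdb1 -0.00636, Setdb2 -0.183, Kmt5a -0.0839 and Kmt5c -0.231. With spike-in scaling: Kdm1b -0.154, Kdm8 -0.21, Setdb2-phf11c -0.148, Setd1a -0.0444, Setdb1 -0.064, Setdb2 -0.187, Kmt5a -0.276 and Kmt5c -0.277. Without single libraries, values ranged from -0.253 to 0.299 for Setdb2-phf11c, -0.0511 to 0.209 for Setdb2, -0.0101 to 0.045 for Kmt5a and -0.0307 to 0.05 for Kmt5c.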
